A study of Mus musculus with 28 samples.

Results

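Genes induced by interferons and genes of antigen presentation were followed in mouse skeletal muscle after interleukin 1b (IL-1b, an inflammatory cytokine) was injected into the cerebral ventricles. The set names 39 genes, and members were the probe sets that the platform annotation gives exactly 1 symbol equal to one of these names. That rule found 33 members of 15224 genes measured in this way, each with 1 probe set. Ifit3 and Eif2ak2 lie on probe sets with several symbols, and Isg15, Ifi44, Xaf1 and Nlrc5 have no probe set listed here, so these were not analysed here.

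Total muscle RNA was hybridised to 28 whole-transcript Affymetrix arrays in 6 groups. These were IL-1b at 2 h (5 arrays) and vehicle at 2 h (5), IL-1b at 4 h (5) and vehicle at 4 h (5), and IL-1b at 8 h (3) and vehicle at 8 h (5). The labels used here name skeletal muscle without saying which muscle, and give no strain, sex, age or dose. Whether the arrays come from different mice is not in the labels, so a p-value here speaks of the scatter among samples, which may be technical.

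Values are the authors' log2 values after RMA, and each probe set has a median of 0 over the 28 arrays. A value therefore says how far an array lies from the middle of all arrays for that probe set. It gives no expression level, so whether a member was expressed above background, and the tissue itself, could not be checked from levels. The array labelled IL-1b 2 h replicate 2 did not follow its group in the endothelial adhesion genes Selp (-0.29, against 2.87 to 3.01 on the other 4 IL-1b arrays at 2 h) and Icam1 (0.19, against 2.29 to 2.64). The 3 arrays whose values spread most widely over all probe sets were replicate 22 of IL-1b at 8 h, with an SD of 0.330, and replicate 7 of vehicle at 2 h and replicate 1 of vehicle at 8 h, with SDs of 0.298 and 0.317. Values without one of these or another array stand beside some of the results below. Where all 3 are left out, replicates 14 and 26 are the only IL-1b arrays at 8 h.

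Interferons bind receptors that activate transcription factors. Complexes that hold STAT2 and IRF9 bind interferon-stimulated response elements (ISRE), and interferon gamma acts through gamma-activated sites (GAS). The induced genes encode transcription factors of the IRF family, sensors of viral RNA, antiviral effectors, and the proteasome subunits, peptide transporters and light chain through which cells show peptides on MHC class I. Some of them, such as Irf1, also respond to NF-kB, the factor downstream of the IL-1 receptor.

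Promoter windows from RefSeq (build GRCm38.p6, 250 bases before to 50 bases after each start) were found for 25 of the 33 members, and 5 are printed here because the results below turn on these genes. Capitals mark matches to the ISRE core GAAANNGAAA (TTTCNNTTTC on the other strand), to the GAS core TTCNNNGAA or to the kB consensus, all searched on both strands. In Irf1, which had 2 windows, of which the one with more matches is shown, the capitals are a GAS match whose first base lies at -90 from the start and a kB match at -13. In Gbp2 and Ifit1 they are ISRE matches, 1 at -59 in Gbp2 and 2 at -104 and -85 in Ifit1. In Ddx58 and Ifih1 the ISRE match follows the start, at 2 and 32. The coordinates belong to GRCm38.p6, while the submitters' processing notes name mm9.
Irf1 chr11:53769764-53770063 (plus strand): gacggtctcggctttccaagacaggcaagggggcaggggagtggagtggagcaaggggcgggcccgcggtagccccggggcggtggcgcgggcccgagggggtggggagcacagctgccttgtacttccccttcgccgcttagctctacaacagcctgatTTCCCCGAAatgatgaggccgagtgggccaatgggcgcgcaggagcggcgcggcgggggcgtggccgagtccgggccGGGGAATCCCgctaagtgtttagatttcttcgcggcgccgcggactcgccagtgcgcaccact
Gbp2 chr3:142620413-142620712 (plus strand): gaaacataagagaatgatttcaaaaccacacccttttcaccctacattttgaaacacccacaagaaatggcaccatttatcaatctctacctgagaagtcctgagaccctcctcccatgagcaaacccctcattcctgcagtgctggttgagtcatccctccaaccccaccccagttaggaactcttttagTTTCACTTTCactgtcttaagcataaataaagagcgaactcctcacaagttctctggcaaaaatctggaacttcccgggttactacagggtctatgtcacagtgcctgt
Ifit1 chr19:34640639-34640938 (plus strand): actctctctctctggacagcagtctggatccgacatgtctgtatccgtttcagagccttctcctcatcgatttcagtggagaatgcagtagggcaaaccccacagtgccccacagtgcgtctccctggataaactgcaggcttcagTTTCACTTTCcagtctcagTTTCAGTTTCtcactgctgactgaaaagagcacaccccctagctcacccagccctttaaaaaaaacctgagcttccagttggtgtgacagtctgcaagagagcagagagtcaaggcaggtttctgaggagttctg
Ddx58 chr4:40239776-40240075 (minus strand): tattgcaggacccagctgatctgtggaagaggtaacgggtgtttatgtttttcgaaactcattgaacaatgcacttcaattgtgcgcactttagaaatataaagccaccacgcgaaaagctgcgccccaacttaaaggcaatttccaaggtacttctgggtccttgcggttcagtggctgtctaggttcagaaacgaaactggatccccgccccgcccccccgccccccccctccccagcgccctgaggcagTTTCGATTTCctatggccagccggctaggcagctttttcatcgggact
Ifih1 chr2:62646206-62646505 (minus strand): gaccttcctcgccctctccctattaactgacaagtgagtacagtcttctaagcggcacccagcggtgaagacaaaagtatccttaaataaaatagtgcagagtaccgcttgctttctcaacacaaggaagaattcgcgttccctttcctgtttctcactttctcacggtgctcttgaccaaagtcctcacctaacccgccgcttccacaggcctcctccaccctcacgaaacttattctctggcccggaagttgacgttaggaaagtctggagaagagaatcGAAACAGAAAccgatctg

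An ISRE core was present in 9 of the 25 members with a window (B2m, Ddx58, Gbp2, Gbp3, Ifih1, Ifit1, Irf2, Rsad2 and Stat2), and in 3.44% of all 32851 windows or 3.99% of genes. A GAS core was present in 8 members (Ifi35, Ifit2, Irf1, Irf2, Irf8, Isg20, Psmb8 and Samhd1), and in 8.3% of all windows or 9.55% of genes. The kB consensus was present in 3 members (B2m, Irf1 and Irf2), and in 4.51% of all windows or 5.14% of genes. A GAS and a kB match can stand in the same window, as in Irf1. Psmb9 and Tap1 are neighbours read in opposite directions, and 275 bases of their windows (chr17:34187306-34187580) are the same DNA. A match describes letters only and was not set against any binding data.

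At 2 h after IL-1b, 0 of the 33 members passed the threshold of an adjusted p of 0.01 in limma's moderated test, where 0.0729% of all 17831 probe sets did. Irf1 was nearest to it, at 0.50 ± 0.11 on the log2 scale (SE, 1.41-fold, 95% interval 1.21 to 1.65, limma adjusted p = 0.0498). At an unadjusted p under 0.05, 5 members passed (15.2% of them, against 10.6% of all probe sets): Irf1, Rsad2, Gbp2 and Samhd1 with positive differences and Oas2 with a negative one. The groups did not overlap for 2 members that were higher, Rsad2 and Samhd1, and for 0 that were lower, where 1.1% and 1.31% of all probe sets did so. The median difference of the members was 0.04, against -0.02 for all probe sets, and 18 of 33 were above 0. Without the array labelled IL-1b 2 h replicate 2, Irf1 passed the threshold (0.62 ± 0.10, limma adjusted p = 0.000821) as 1 of 33 members, and 0.224% of all probe sets did. At an unadjusted p under 0.05, 8 members then passed, against 14.9% of all probe sets, with Irf2 and Ddx58 above 0 and Stat2 below it added to the 5 named. For Irf1, replicate 2 held the lowest value of the IL-1b group, so leaving it out raised the difference. Leaving out IL-1b 2 h replicate 10 instead gave an Irf1 difference of 0.44 (limma adjusted p = 0.175).

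At 4 h, 0 of 33 members passed the threshold, and 0.847% of all probe sets did. At an unadjusted p under 0.05, 5 members passed (15.2%, against 8.78% of all probe sets), with Ifit1, Oasl2, Irf7 and Stat2 above 0 and Irf1 below it. The groups overlapped for every member in both directions, while 1.85% of all probe sets were higher and 1.65% lower without overlap. The members' median difference was 0.06, against 0.003 for all probe sets, with 25 of 33 above 0.

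At 8 h, 0 of 33 members passed the threshold, and 2.09% of all probe sets did. At an unadjusted p under 0.05, 3 members passed (9.09%, against 12.9% of all probe sets), namely Irf2 with a positive and Dtx3l and Ddx58 with negative differences. The groups did not overlap for Irf2, which was higher, and for 0 members that were lower, where 2.74% and 3.93% of all probe sets did so. The members' median was -0.07, against -0.0004 for all probe sets, with 11 of 33 above 0. Only 3 IL-1b arrays enter this comparison. Leaving out 1 array moved the difference by over 1.5 times, or turned its sign, for 31 of 33 members at 8 h (all but Irf2 and Irf9) and for 24 of 33 at both 2 h and 4 h. The same count was not made over all probe sets, so it does not set the members apart from other genes.

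**Figure D1:**
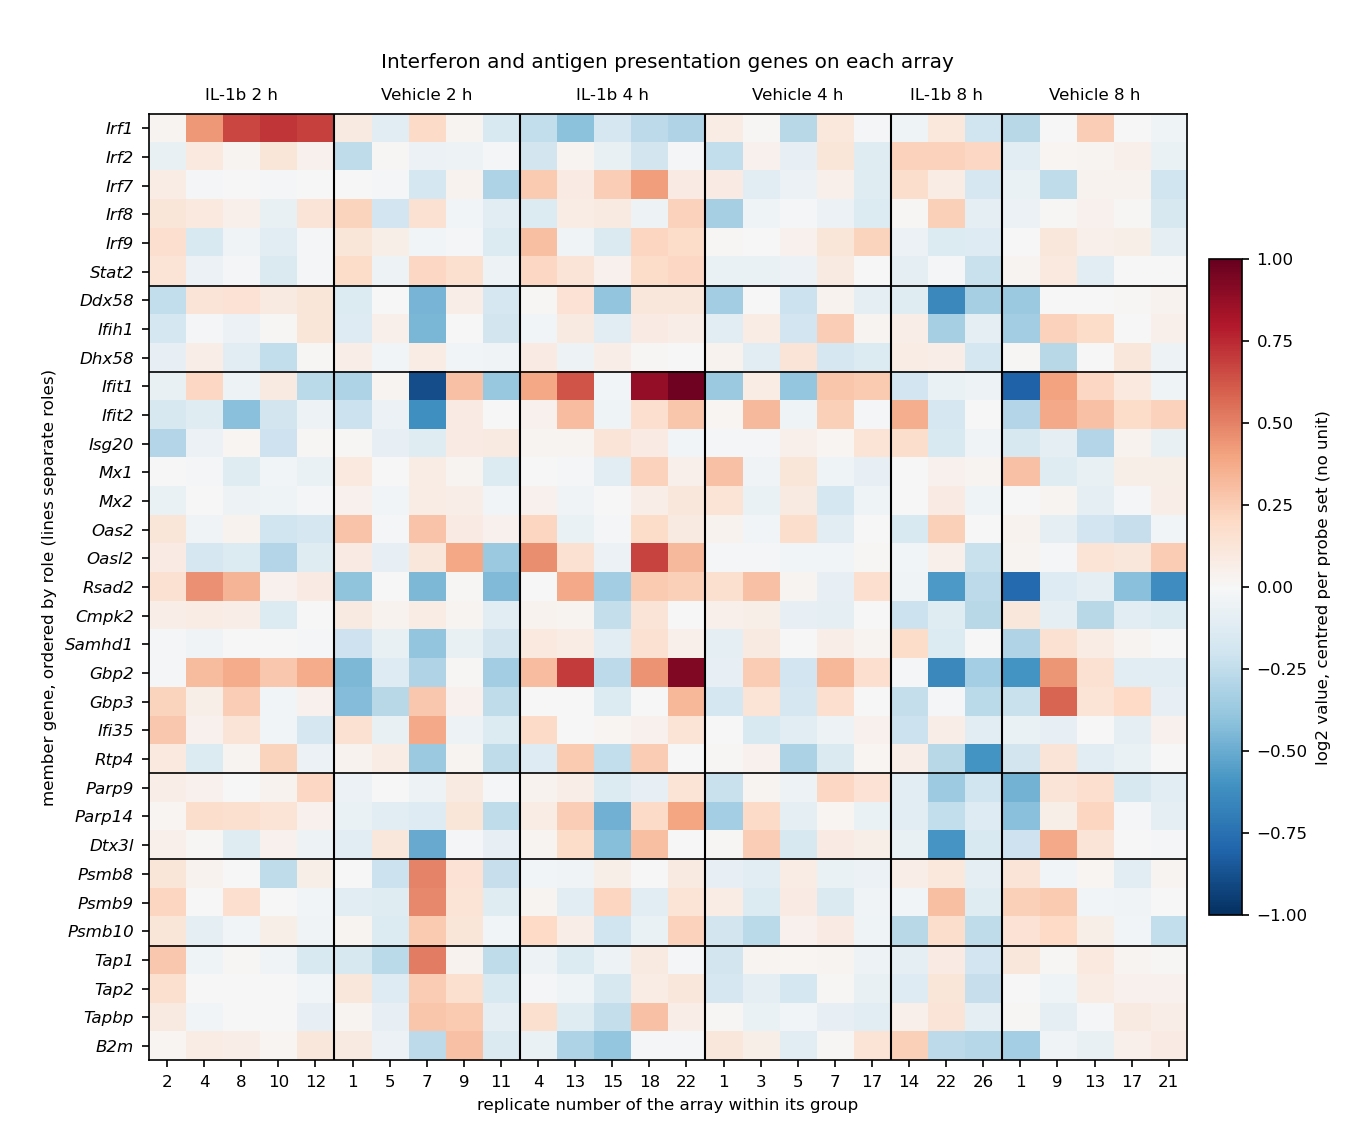
Centred log2 value of each of the 33 members (rows, ordered by role) on each of the 28 arrays (columns, by group and replicate number), in red above and in blue below the probe set's median. Irf1 is above 0 on all 5 IL-1b arrays at 2 h, though only barely (0.03) on replicate 2, and Ifit1 and Gbp2 vary most from array to array.

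The intervals bound the difference in array values. They do not bound a change in transcript, since whether a member was expressed above background could not be checked. No member reached the 1.75-fold change that the study's design text uses, at any time. The 95% interval lay inside 1.75-fold in both directions for 32 of 33 members at 2 h (all but Gbp2), for 32 at 4 h (all but Ifit1) and for 33 at 8 h. Without the array labelled IL-1b 2 h replicate 2 it held for 31 at 2 h (all but Gbp2 and Irf1, whose interval then reached 0.81 on the log2 scale). With all arrays, it held for 98.3%, 98.8% and 97.3% of all probe sets at 2, 4 and 8 h. Within 1.5-fold lay 29, 31 and 30 members at 2, 4 and 8 h, and 93.6%, 95.4% and 91% of all probe sets.

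**Figure D2:**
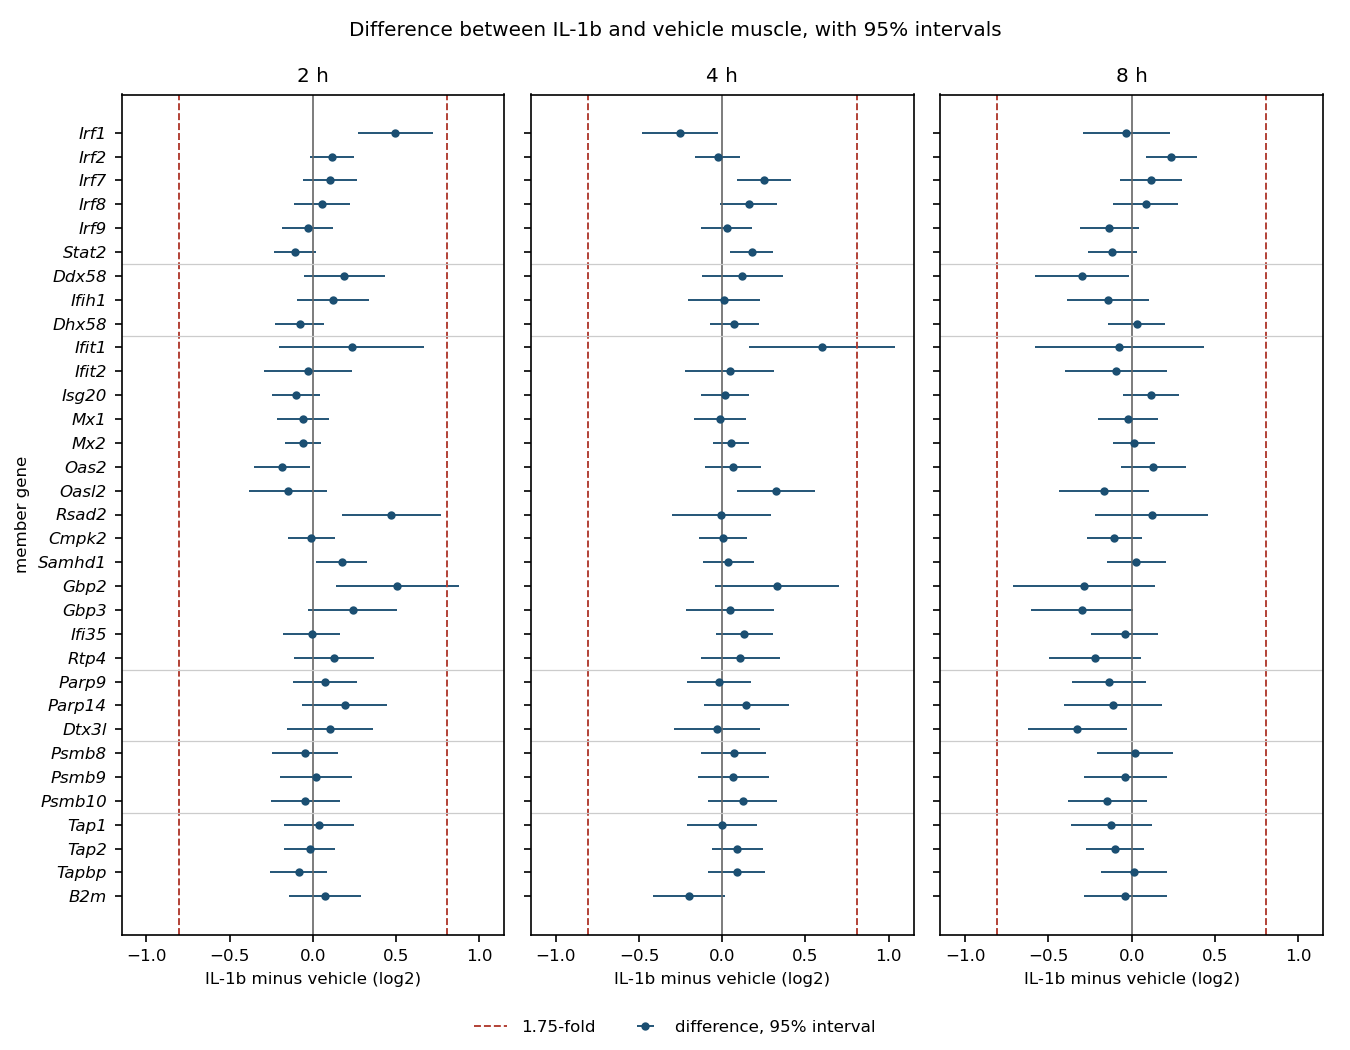
Difference between IL-1b and vehicle muscle for each member at 2, 4 and 8 h, as points with 95% intervals of limma's fit (log2 scale); dashed lines mark 1.75-fold in either direction. The intervals of Gbp2 at 2 h and Ifit1 at 4 h cross the dashed line, and all others lie between the lines.

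Among the transcription factors, Irf1 (interferon regulatory factor 1, an early activator of interferon and antigen presentation genes) had the lowest adjusted p of the members at 2 h. At 2 h it stood at 0.03, 0.44, 0.67, 0.71 and 0.68 on the IL-1b arrays, against 0.09, -0.11, 0.19, 0.02 and -0.15 on the vehicle arrays. The lowest IL-1b value is replicate 2, which lies inside the vehicle range, and the other 4 lie above every vehicle array. At 4 h Irf1 stood at -0.24, -0.41, -0.17, -0.26 and -0.30 on the IL-1b arrays, against 0.08, 0.01, -0.28, 0.10 and -0.01 on the vehicle arrays. The IL-1b arrays were all below 0, and 1 vehicle array lay among them (difference -0.25 ± 0.11, limma adjusted p = 0.444). At 8 h the difference was -0.03 ± 0.13 (limma adjusted p = 0.976).

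Irf1 passed the moderated F-test over the 6 groups (limma adjusted p = 0.000406), as did Rsad2 (0.00984). These are 2 of 33 members, or 6.06%, and 6.14% of all probe sets passed. The design text's selection, that F-test with a 1.75-fold change at any time, held 0 members and 0.684% of all probe sets. Without the array labelled IL-1b 2 h replicate 2, Rsad2 no longer passed the F-test (limma adjusted p = 0.0147).

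The other factors differed less. Irf7, which drives interferon alpha genes, stood at 0.26, 0.08, 0.24, 0.42 and 0.08 on the IL-1b arrays at 4 h, against 0.08, -0.12, -0.06, 0.05 and -0.12 on the vehicle arrays. The groups overlapped only near 0.08 (difference 0.25 ± 0.08, limma adjusted p = 0.146). Stat2, the partner of IRF9, differed by 0.18 ± 0.06 at 4 h (limma adjusted p = 0.230). At 8 h it differed by -0.12 ± 0.07 (limma adjusted p = 0.579), and by -0.06 without IL-1b 8 h replicate 26.

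Irf2, which competes with IRF1 for the same sites, stood at 0.23, 0.23 and 0.21 on the IL-1b arrays at 8 h, against -0.10, 0.02, 0.03, 0.05 and -0.06 on the vehicle arrays. The groups did not overlap (difference 0.24 ± 0.07, limma adjusted p = 0.0804). Without the 3 arrays of widest spread the difference was 0.21 (limma adjusted p = 0.264). At 2 h Irf2 differed by 0.12 ± 0.06 (limma adjusted p = 0.507), and by 0.07 without vehicle 2 h replicate 1. Irf8, the factor of myeloid cells, and Irf9 had adjusted p-values of at least 0.616 at each time.

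**Figure D3:**
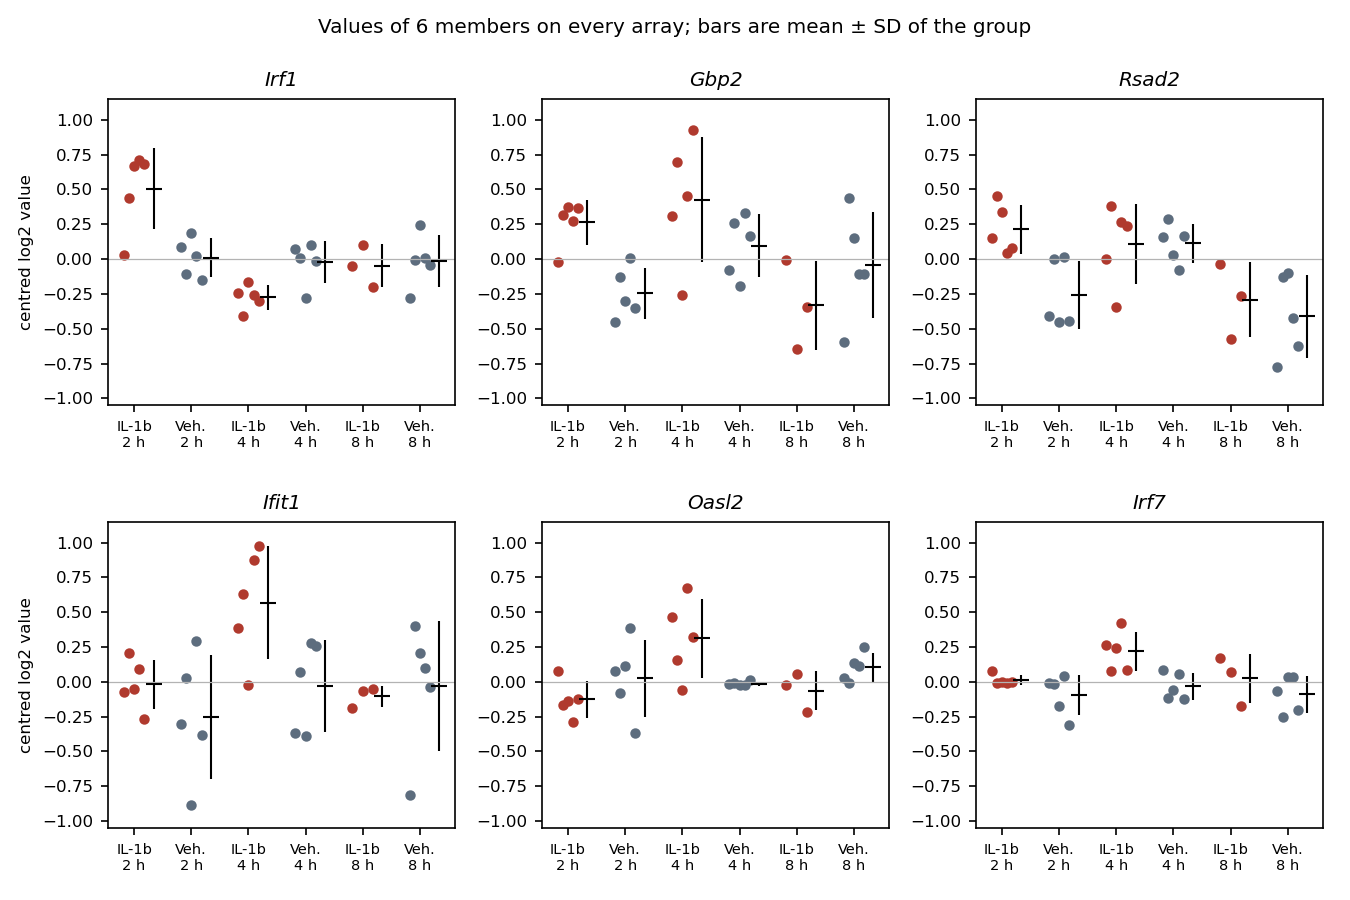
Centred log2 values of Irf1, Gbp2, Rsad2, Ifit1, Oasl2 and Irf7 on every array, IL-1b in red and vehicle in grey at 2, 4 and 8 h, with the group mean and SD beside the points. At 2 h, 4 IL-1b arrays lie above all vehicle arrays for Irf1. At 4 h IL-1b replicate 15 is the lowest of its group for Ifit1, Gbp2, Rsad2 and Oasl2, and the highest for Irf1.

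The sensors of viral RNA in the cytosol (Ddx58, encoding RIG-I, Ifih1, encoding MDA5, and Dhx58, encoding LGP2) had lowest adjusted p-values of 0.550 at 2 h, 0.901 at 4 h and 0.331 at 8 h. Ddx58 stood at -0.12, -0.64 and -0.33 on the IL-1b arrays at 8 h, against -0.37, 0.01, -0.00, 0.01 and 0.04 on the vehicle arrays. The lowest value in each of these groups is one of the 3 arrays of widest spread. The difference was -0.30 ± 0.14 (limma adjusted p = 0.331), -0.24 without the 3 arrays of widest spread (limma adjusted p = 0.450) and -0.16 without IL-1b 8 h replicate 22 alone (limma adjusted p = 0.766). Ddx58 differed by 0.19 ± 0.12 at 2 h and by 0.12 ± 0.12 at 4 h, with adjusted p-values of 0.550 and 0.901. Leaving out 1 array gave Ddx58 differences from 0.11 (without vehicle 2 h replicate 7) to 0.26 (without IL-1b 2 h replicate 2) at 2 h, and from 0.06 (without vehicle 4 h replicate 1) to 0.22 (without IL-1b 4 h replicate 15) at 4 h. Ifih1 differed by 0.12 ± 0.10 at 2 h, and by 0.04 without vehicle 2 h replicate 7. At 8 h Ifih1 differed by -0.14 ± 0.12, with -0.24 without IL-1b 8 h replicate 14 and without vehicle 8 h replicate 1, and -0.04 without IL-1b 8 h replicate 22. Dhx58 differed by 0.07 ± 0.07 at 4 h, with 0.04 to 0.12 when 1 array was left out.

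Among the 14 antiviral and other effectors, Ifit1, Gbp2 and Rsad2 varied most. Ifit1, whose protein binds viral RNA that lacks a methylated cap, stood at 0.39, 0.63, -0.02, 0.88 and 0.98 on the IL-1b arrays at 4 h, against -0.37, 0.07, -0.39, 0.28 and 0.26 on the vehicle arrays. All but 1 of the IL-1b arrays, replicate 15, lay above every vehicle array, and the difference of 0.60 ± 0.21 was the largest of any member between IL-1b and vehicle (limma adjusted p = 0.240). Its vehicle arrays ran from -0.89 to 0.29 at 2 h and from -0.81 to 0.40 at 8 h. Both lowest values are arrays of widest spread. Ifit1 differed by 0.23 ± 0.21 at 2 h and by 0.07 without vehicle 2 h replicate 7. At 8 h it differed by -0.07 ± 0.25, and by -0.27 without vehicle 8 h replicate 1.

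Gbp2, a guanylate-binding protein that acts on the membranes around intracellular pathogens, stood at -0.02, 0.32, 0.37, 0.27 and 0.37 on the IL-1b arrays at 2 h, against -0.45, -0.13, -0.30, 0.01 and -0.35 on the vehicle arrays. The groups overlapped through the array labelled IL-1b 2 h replicate 2 alone. The difference was 0.51 ± 0.18 (limma adjusted p = 0.316), and 0.58 ± 0.19 without that array (limma adjusted p = 0.196). At 4 h Gbp2 stood at 0.31, 0.70, -0.26, 0.45 and 0.93 on the IL-1b arrays, against -0.08, 0.26, -0.19, 0.33 and 0.17 on the vehicle arrays, where the groups overlapped (0.33 ± 0.18, limma adjusted p = 0.659). That difference was 0.50 without IL-1b 4 h replicate 15 (limma adjusted p = 0.220) and 0.20 without IL-1b 4 h replicate 22. Gbp3 differed by 0.24 ± 0.13 at 2 h and by -0.30 ± 0.15 at 8 h, with adjusted p-values of 0.499 and 0.408. The value at 8 h was -0.18 without vehicle 8 h replicate 9 and -0.46 without the 3 arrays of widest spread (limma adjusted p = 0.0888). That last fit keeps only replicates 14 and 26 of IL-1b at 8 h.

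Rsad2 (viperin, which makes a chain-terminating nucleotide) stood at 0.15, 0.46, 0.34, 0.04 and 0.08 on the IL-1b arrays at 2 h, against -0.41, -0.00, -0.45, 0.02 and -0.44 on the vehicle arrays. Every IL-1b array lay above every vehicle array, the nearest values being 0.04 and 0.02. The difference was 0.47 ± 0.14 (limma adjusted p = 0.212), 0.49 without the array labelled IL-1b 2 h replicate 2 and 0.42 without the 3 arrays of widest spread (limma adjusted p = 0.307). Its neighbour Cmpk2 differed by -0.01 ± 0.07 at 2 h.

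Oasl2, of the 2'-5' oligoadenylate synthetase family, stood at 0.47, 0.15, -0.06, 0.67 and 0.32 on the IL-1b arrays at 4 h, against -0.02, -0.01, -0.03, -0.02 and 0.01 on the vehicle arrays. The vehicle values lay close together and 4 of 5 IL-1b arrays lay above them (0.32 ± 0.11, limma adjusted p = 0.228). At the other times Oasl2 ran more widely on the vehicle arrays, from -0.37 to 0.38 at 2 h and from -0.01 to 0.25 at 8 h. The 4 h difference was 0.23 without IL-1b 4 h replicate 18 (limma adjusted p = 0.584) and 0.42 without IL-1b 4 h replicate 15 (limma adjusted p = 0.0615). Samhd1, which hydrolyses deoxynucleotides, differed by 0.17 ± 0.07 at 2 h (limma adjusted p = 0.433). Oas2 differed by -0.19 ± 0.08 at 2 h (limma adjusted p = 0.451). Rtp4, a chaperone of receptors, differed by -0.22 ± 0.13 at 8 h (limma adjusted p = 0.572), with -0.39 without IL-1b 8 h replicate 14 and -0.06 without IL-1b 8 h replicate 26. Mx1 and Mx2, the dynamin-like antiviral GTPases, differed by at most 0.06 in size at each time.

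The ADP-ribosylation genes Parp9, Parp14 and Dtx3l, of which PARP9 and DTX3L work as a pair, were all above 0 at 2 h and all below 0 at 8 h, with 0 of 3 past the threshold at either time. Dtx3l stood at -0.08, -0.59 and -0.15 on the IL-1b arrays at 8 h, against -0.21, 0.38, 0.13, -0.00 and -0.02 on the vehicle arrays. The groups overlapped, and the IL-1b array at -0.59 is the one of widest spread (difference -0.33 ± 0.15, limma adjusted p = 0.311). Without that array the difference was -0.17 (limma adjusted p = 0.768). Parp14 differed by 0.19 ± 0.12 at 2 h and by 0.14 ± 0.12 at 4 h, the second being 0.29 without IL-1b 4 h replicate 15 and 0.07 without IL-1b 4 h replicate 22. Parp9 differed by -0.14 ± 0.11 at 8 h, with -0.23 without vehicle 8 h replicate 1 and -0.07 without IL-1b 8 h replicate 22.

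The immunoproteasome subunits Psmb8, Psmb9 and Psmb10, which replace the constitutive catalytic subunits, had differences that ran from -0.05 to 0.02 at 2 h, from 0.07 to 0.12 at 4 h and from -0.15 to 0.02 at 8 h, and their lowest adjusted p was 0.751. Psmb8 and Psmb9 were highest of all arrays on vehicle 2 h replicate 7, at 0.49 and 0.48. Without that array their differences at 2 h were 0.07 and 0.13. Psmb10 differed by -0.15 at 8 h, with -0.29 without IL-1b 8 h replicate 22 (limma adjusted p = 0.252) and -0.07 without IL-1b 8 h replicate 14.

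For the peptide transporter genes Tap1 and Tap2, the loading chaperone gene Tapbp and the MHC class I light chain gene B2m, differences ran from -0.08 to 0.07 at 2 h, from -0.20 to 0.09 at 4 h and from -0.12 to 0.01 at 8 h. The lowest adjusted p was 0.638, for B2m at 4 h (-0.20 ± 0.11). B2m stood at -0.06, -0.31, -0.39, -0.01 and -0.01 on the IL-1b arrays at 4 h, against 0.12, 0.06, -0.11, 0.01 and 0.14 on the vehicle arrays. The groups overlapped, with 2 IL-1b arrays below all others. Tapbp differed by -0.08 ± 0.08 at 2 h, with -0.03 without vehicle 2 h replicate 7. Tap2 differed by -0.10 ± 0.09 at 8 h, with -0.20 without IL-1b 8 h replicate 22 and -0.02 without IL-1b 8 h replicate 26. Tap1 differed by 0.04 at 2 h, and by 0.17 without vehicle 2 h replicate 7, where it stood at 0.51. Without IL-1b 2 h replicate 2 it differed by -0.03. B2m differed by -0.04 at 8 h, with -0.21 without IL-1b 8 h replicate 14 and 0.05 without IL-1b 8 h replicate 26.

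Markers of other cells were read beside these values, and in bulk muscle fewer cells of a type and less RNA per cell cannot be told apart. At 2 h, 1 of 12 measured neutrophil markers passed the threshold, Retnlg (1.28 ± 0.19, limma adjusted p = 0.00151), and the mean of the list ran from 0.01 to 0.46 on the IL-1b arrays, against -0.14 to 0.02 on the vehicle arrays. The mean of 13 monocyte and macrophage markers ran from -0.22 to -0.09 on the IL-1b arrays at 2 h, against -0.10 to 0.25 on the vehicle arrays, with 0 past the threshold. At 8 h the mean of this list ran from 0.06 to 0.27 on the IL-1b arrays, against -0.08 to 0.02 on the vehicle arrays, without overlap. Of its genes at 8 h, 0 passed the threshold, with Cd163 at 0.61 ± 0.15 (limma adjusted p = 0.0160) and Itgam at 0.37 ± 0.09 (limma adjusted p = 0.0175). At 4 h, 2 of 12 endothelial markers were lower, Kdr (-0.94 ± 0.12) and Eng (-0.46 ± 0.08), and the mean of the list ran from -0.25 to -0.07 on the IL-1b arrays, against -0.08 to 0.18 on the vehicle arrays. The mean of 11 skeletal muscle markers ran from -0.02 to 0.03 on the IL-1b arrays at 2 h, against -0.06 to 0.11 on the vehicle arrays. The 7 fibroblast markers had median differences of -0.47 at 2 h, -0.13 at 4 h and -0.64 at 8 h, with 0 past the threshold. The part of these markers in the members' values was not tested.

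In vehicle muscle alone, 0 of 33 members differed between times at the threshold. At 4 h against 2 h 0.101% of all probe sets passed, at 8 h against 4 h 0.129%, and at 8 h against 2 h 0.852%. At an unadjusted p under 0.05, 2 members passed at 4 h against 2 h (Rsad2 and Samhd1, with 11.2% of all probe sets). At 8 h against 4 h 2 passed (Rsad2 and Isg20, with 8.42%), and at 8 h against 2 h 3 passed (Oas2, Ifit2 and Samhd1, with 10.3%).

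Rsad2 differed most between times in vehicle muscle, though not past the threshold. It stood at -0.78, -0.13, -0.10, -0.42 and -0.62 at 8 h, against 0.16, 0.29, 0.03, -0.08 and 0.17 at 4 h. The groups did not overlap, though -0.10 at 8 h and -0.08 at 4 h lay close (difference -0.52 ± 0.14, limma adjusted p = 0.129). Without the 3 arrays of widest spread it was -0.43 (limma adjusted p = 0.219). At 4 h against 2 h Rsad2 differed by 0.37 ± 0.14 and Samhd1 by 0.21 ± 0.07, with adjusted p-values of 0.344 and 0.307. These comparisons share vehicle arrays with the IL-1b comparisons, and the low Rsad2 values of the vehicle arrays at 2 h enter both.

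Other members differed less between times in vehicle muscle. At 8 h against 2 h Oas2 differed by -0.24 ± 0.08 (limma adjusted p = 0.186) and Ifit2, a relative of Ifit1, by 0.32 ± 0.13 (limma adjusted p = 0.315). Isg20, an exonuclease gene, differed by -0.15 ± 0.07 at 8 h against 4 h (limma adjusted p = 0.565). At 4 h against 2 h Tap2 differed by -0.15 ± 0.07 and Ifih1 by 0.15 ± 0.10, and Irf8 by -0.13 ± 0.08. The immunoproteasome genes differed by at most 0.12 in size in each vehicle comparison.

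The change of the IL-1b effect between times was tested as an interaction, and 0 of 33 members passed. Of all probe sets 0.0505% passed for 4 h against 2 h, 0.174% for 8 h against 4 h and 0.527% for 8 h against 2 h. The Irf1 effect at 4 h differed from that at 2 h by -0.75 ± 0.16 (limma adjusted p = 0.0417), and that at 8 h differed from that at 2 h by -0.53 ± 0.17 (limma adjusted p = 0.156). Without the array labelled IL-1b 2 h replicate 2 the first of these was -0.87 ± 0.13 and passed (limma adjusted p = 0.00102), as 1 of 33 members beside 0.151% of all probe sets. The second was then -0.65 ± 0.14 (limma adjusted p = 0.0149). With any 1 array left out, the first ran from -0.87 to -0.70. Its highest adjusted p in the alternatives, by limma or an ordinary t-test, was 0.118.

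At an unadjusted p under 0.05, 5 members passed for 4 h against 2 h (15.2%, against 10% of all probe sets), Irf1 and Rsad2 with a lower and Stat2, Oasl2 and Oas2 with a higher effect at 4 h. For 8 h against 4 h, 6 members passed (18.2%, against 7.13%), Stat2, Oasl2, Ddx58, Gbp2 and Ifit1 with a lower and Irf2 with a higher effect at 8 h. For 8 h against 2 h, 6 members passed (18.2%, against 11.1%), Irf1, Gbp2, Gbp3, Ddx58 and Dtx3l with a lower and Oas2 with a higher effect at 8 h. The effect of IL-1b on Oasl2 was higher by 0.48 ± 0.16 at 4 h than at 2 h (limma adjusted p = 0.379), and at 8 h it differed from that at 4 h by -0.49 ± 0.17 (limma adjusted p = 0.354). For Gbp2 the effect at 8 h differed from that at 2 h by -0.80 ± 0.28 (limma adjusted p = 0.212).

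Members differed in how widely replicates of a group scattered. Ifit1 had a residual SD of 0.362 within groups, wider than 98.0% of all probe sets, Gbp2 0.305 (95.8%) and Rsad2 0.241 (89.1%). Mx2, Stat2 and Irf2 scattered least, with 0.0716, 0.0917 and 0.0972. Without the 3 arrays of widest spread, Ifit1 had 0.291 and Gbp2 0.282, wider than 97.4% and 96.9% of all probe sets. The 2 members with the largest differences at 2 or 4 h, Ifit1 and Gbp2, were thus the 2 with the widest scatter among replicates.

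Some members varied together from array to array within groups. Over the 528 pairs of members, the deviations from the group means correlated with a mean Pearson r of 0.139 across the 28 arrays, and 0.0296 over all pairs of probe sets. Across the 25 arrays without the widest 3 these means were 0.191 and 0.0196. The arrays are shared by both genes of a pair, so a pair also shares whatever sets an array apart, and these values are a description with no test. The ADP-ribosylation genes had a mean of 0.613 among themselves (0.542 across 25 arrays), the immunoproteasome genes 0.571 (0.330), and the peptide loading and MHC class I genes 0.411 (0.606). The other roles had lower means, 0.033 (0.0445) for the sensors of viral RNA, 0.0816 (0.0619) for the transcription factors and 0.132 (0.199) for the effectors.

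The closest pair was Oasl2 and Tapbp, with r = 0.871 across 28 arrays and 0.899 across 25. Gbp2 followed Parp14 (0.841 and 0.812) and Ddx58 (0.811 and 0.823), and Ddx58 followed Ifih1 (0.854 and 0.739). The pair that shares a promoter window, Psmb9 and Tap1, had r = 0.684 across 28 arrays and 0.308 across 25, and Psmb8 and Tap1 had 0.798 and 0.535. The RNA sensor Ddx58 and Psmb9 lay on opposite sides of 0 on the arrays of widest spread. Ddx58 stood at -0.64, -0.47 and -0.37 and Psmb9 at 0.30, 0.48 and 0.24 on IL-1b 8 h replicate 22, vehicle 2 h replicate 7 and vehicle 8 h replicate 1, and the 2 genes had r = -0.684 across 28 arrays and -0.449 across 25.

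**Figure D4:**
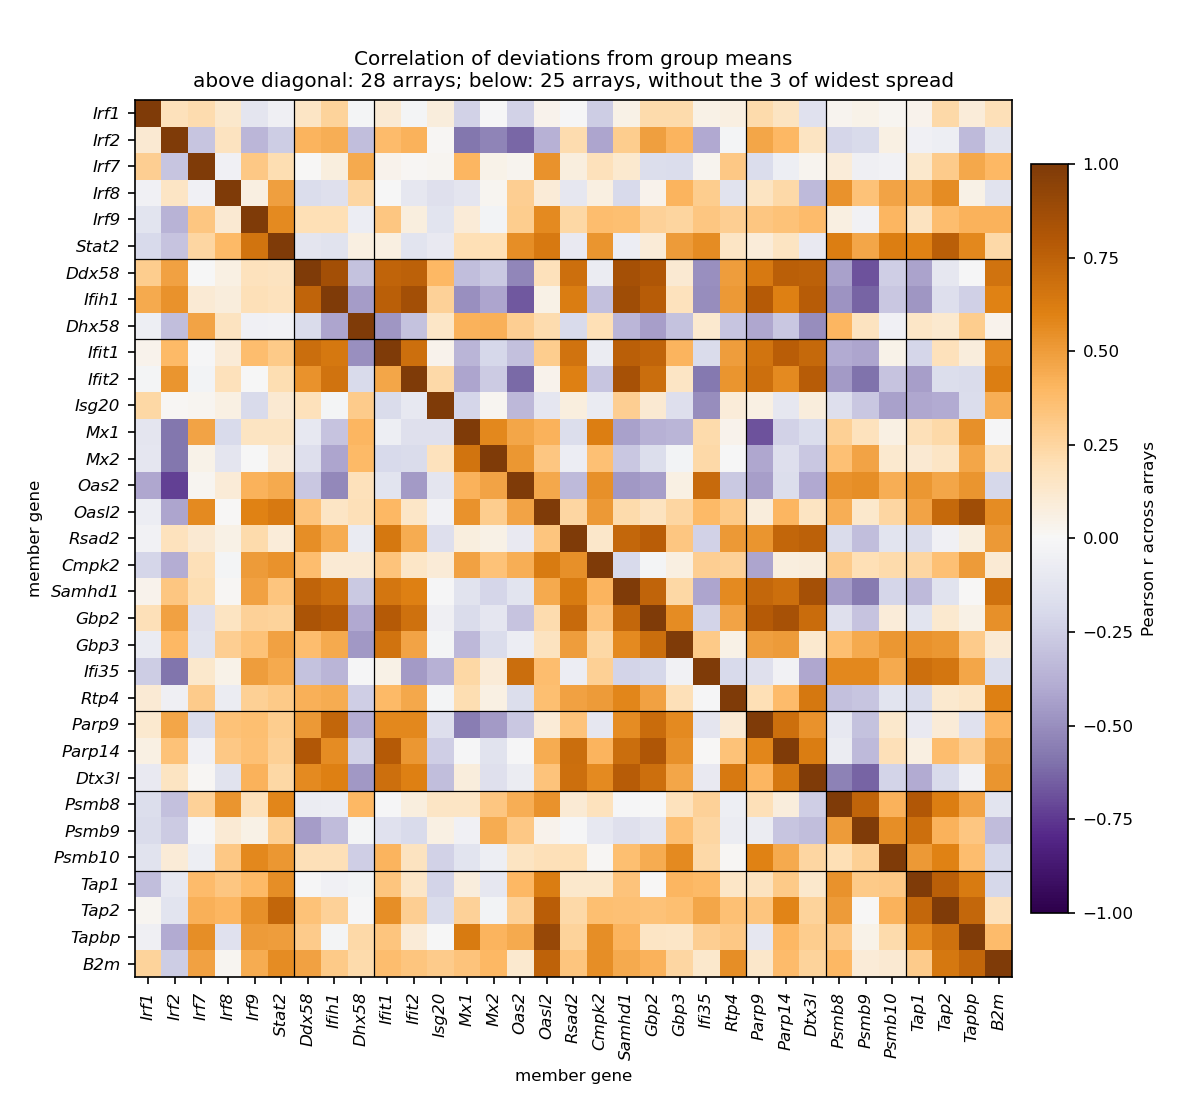
Pearson r between each pair of members across arrays, computed on deviations from group means, with 28 arrays above the diagonal and the 25 arrays left without the widest 3 below it. Ddx58, Ifih1, Gbp2 and Parp14 are orange with each other on either side of the diagonal, and the purple cell of Ddx58 and Psmb9 is paler below it (-0.449) than above it (-0.684).

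Within IL-1b muscle at 4 h, 1 array stood below the rest over the members. The mean of the 33 members was -0.11 on replicate 15 and 0.07 to 0.16 on the other 4 IL-1b arrays, against -0.06 to 0.03 on the vehicle arrays at 4 h. On this array 8 of the 33 members were above 0. Irf1, Psmb9 and Isg20 were the highest of the 5 there, at -0.17, 0.22 and 0.13. In contrast, on this array Ifit1, Gbp2, Rsad2, Parp14, Dtx3l and Ddx58 were each the lowest of the 5. Its Selp value of 1.34 was also the lowest of the group, whose other arrays had 1.71 to 1.93. Its Icam1 value of 0.005 was not, and lay inside the range of the other arrays, -0.16 to 0.21.

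Genes of the same pathways outside the set gave 1 call. Of 39 measured genes of a further 66 interferon-stimulated genes, Ifi205, of the family of interferon-inducible DNA sensors, passed at 4 h (1.06 ± 0.18, limma adjusted p = 0.000782), and 0 passed at 2 h or 8 h. Of all probe sets, 0.847% passed at 4 h, 0.0729% at 2 h and 2.09% at 8 h. Ifi205 stood at 0.94, 0.91, 0.75, 1.00 and 1.08 on the IL-1b arrays at 4 h, against -0.34, -0.04, 0.31, -0.25 and -0.28 on the vehicle arrays. The groups lay far apart, with replicate 15 again the lowest of the IL-1b arrays. Ifi205 differed by 0.75 ± 0.18 at 2 h and by 0.76 ± 0.21 at 8 h (limma adjusted p = 0.0694 and 0.0314). At 2 h it was 0.89 ± 0.18 without the array labelled IL-1b 2 h replicate 2 (limma adjusted p = 0.0128). It belongs to a cluster of near-identical genes, which a probe set may not tell apart.

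Gbp5, a relative of Gbp2, stood at 0.02, 0.35, 0.70, 0.31 and 0.32 on the IL-1b arrays at 2 h, against -0.33, -0.41, -0.15, -0.19 and -0.37 on the vehicle arrays. The groups did not overlap (0.63 ± 0.12, limma adjusted p = 0.0124), and without the array labelled IL-1b 2 h replicate 2 the difference passed (0.71 ± 0.12, limma adjusted p = 0.00219). Of 25 measured genes of 30 for interferons, their receptors and signalling, 0 passed in any comparison between IL-1b and vehicle. Nearest were Ifngr1, a chain of the interferon gamma receptor, at 8 h (0.36 ± 0.09, limma adjusted p = 0.0196) and Stat3 at 4 h (0.23 ± 0.06, limma adjusted p = 0.0397).

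Of 21 measured genes of 37 others in antigen presentation, 0 passed at any time, where 0.0729% to 2.09% of all probe sets did. At 2 h the MHC class II genes Cd74 and H2-Aa differed by -0.60 ± 0.22 and -0.33 ± 0.12 (limma adjusted p = 0.341 and 0.325), and the median of the 21 genes was -0.11, against -0.02 for all probe sets. The monocyte and macrophage marker means at that time ran from -0.22 to -0.09 on the IL-1b arrays. They overlapped those of the vehicle arrays, -0.10 to 0.25. Whether the class II genes and these markers are linked was not tested.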

How the data were processed

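Skeletal muscle RNA of 28 samples was measured on whole-transcript Affymetrix arrays. The submitters' processing notes name RMA and the build mm9. The log2 values deposited by the authors run from -2.317 to 3.533 over 17831 probe sets with 0 missing, and each probe set's median is 0 within 1e-06, so they are centred. The log base is not given in the sources used here and was taken as log2. The number of arrays limits the precision.

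Groups and replicate numbers came from the titles; in 1 of them replicate and time are not separated, and it was split as in the others. Gene symbols came from the platform annotation (15620 with 1 symbol, 1370 with several, 841 with none listed). The members, lists and tests were chosen with earlier results of these data known.

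A linear model of the 6 groups was fitted to all probe sets with limma 3.58.1 in R 4.3.3 (22 residual and 3.95 prior degrees of freedom). Adjusted p-values came from limma's moderated t, corrected by Benjamini-Hochberg across all probe sets and called under 0.01. Errors after ± are standard errors. The fit was tested on simulated data. Members past the threshold and the 2 of lowest p in each role were chosen for naming in each comparison, and are given by value, by the range of their role or by the count at an unadjusted p under 0.05. Alternatives were other normalizations, array weights, variance estimates, probe set filters, a threshold of 0.05, a replicate block and leaving out arrays. Numbers shared by samples of different groups were not used as pairs in the main fit. Of 10 same-number pairs, 4 correlated above 0.1 (r from -0.434 to 0.678). Pairs of different numbers were not computed beside them, so whether a shared number links samples was not tested. IL-1b and vehicle samples of a time share no number.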

Additional observations from a re-analysis of the deposited data

Results flagged for a closer look

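Of 170 groups of values examined (the members and their mean in each group of 5 arrays), 8 held an array far from the rest by Dixon's ratio, its gap to the nearest array over the group's range, which is 4.71% where chance gives about 1 in 20. The array labelled IL-1b 2 h replicate 2 held 4 of them. There Ddx58 was lowest at -0.25, with the other arrays from 0.09 to 0.14 (ratio 0.868), and Gbp2 was lowest at -0.02, with the others from 0.27 to 0.37 (ratio 0.743). Irf7 was highest at 0.07, with the others from -0.01 to 0.00 (ratio 0.86), and Tap2 was highest at 0.16, with the others from -0.03 to 0.01 (ratio 0.799). Irf1, also lowest on that array, did not reach the critical ratio of 0.71.

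Vehicle 8 h replicate 1, one of the 3 arrays of widest spread, held 2. There Ddx58 stood at -0.37, with the others from -0.00 to 0.04 (ratio 0.903), and Ifit2 at -0.29, with the others from 0.19 to 0.38 (ratio 0.715). On IL-1b 4 h replicate 15, Ddx58 stood at -0.40, with the others from 0.01 to 0.14 (ratio 0.755). On vehicle 2 h replicate 1, Irf2 stood at -0.26, with the others from -0.06 to 0.01 (ratio 0.735). Why these arrays stood apart was not tested.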

How the results depend on the processing

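Counts of members past the threshold were 0 in all 9 comparisons and stayed 0 under every alternative with these exceptions, the cause of which was not tested. Default array quality weights gave 1 member at 2 h and 9 at 8 h, where they called 81 and 2630 of all 17831 probe sets. For the change of the IL-1b effect they gave 1, 4 and 5 members at 4 h against 2 h, 8 h against 4 h and 8 h against 2 h. Of all probe sets they called 62, 666 and 526 there. The estimate of these weights did not converge and gave IL-1b 8 h replicate 26 a weight of 28.0. Weights estimated gene by gene, added after seeing the data, gave 1 at 2 h, 1 for the effect at 4 h against 2 h and 1 for 8 h against 2 h, each of them Irf1. Of all probe sets these weights called 80, 63 and 192. A threshold of 0.05 gave 1 at 2 h and 1 for the effect at 4 h against 2 h, both Irf1, beside 44 and 23 of all probe sets. Leaving out each replicate in turn gave 0 to 1 in these same comparisons, the 1 being Irf1 without IL-1b 2 h replicate 2, and 0 in the other 7. With the replicate block (consensus correlation 0.135) the count was 0 in each comparison, with a lowest adjusted p of 0.0280, for the effect at 4 h against 2 h. The plain F-test held 1 member, Irf1, beside 1033 of all probe sets, and 0 with the fold, beside 116. The alternative of every probe set of a gene gave no separate value, since each member has 1.

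Apart from the default array weights, which were run for counts only, 2448 alternative values were computed for 108 member differences. Of these, 2391 kept direction and side, 7 passed the threshold (all Irf1) and 50 turned sign, none of them called. The count of members that moved by over 1.5 times with 1 array left out, and the intervals without IL-1b 2 h replicate 2, were chosen after seeing the data. Turned values under quantile normalization were 0.026, 0.022 and -0.012 for Psmb8 (IL-1b at 2 h, vehicle 8 h against 2 h, effect at 8 h against 2 h), and with array medians at 0, -0.0023 for Dtx3l (vehicle 8 h against 4 h). Gene-by-gene weights gave 0.040, 0.022 and -0.069 for those Psmb8 results, 0.0015 for Irf7 and -0.028 for Dtx3l (vehicle 8 h against 4 h), 0.0050 for Dhx58 (vehicle 8 h against 2 h), -0.0067 for B2m (effect at 8 h against 4 h) and -0.029 for Tapbp (effect at 8 h against 2 h). Without the 3 arrays of widest spread, Psmb8 gave 0.067, 0.052 and -0.056 in its 3 results and 0.025 for vehicle 4 h against 2 h, Psmb10 0.0093 at 2 h, Parp9 0.0017 (vehicle 8 h against 2 h) and Tapbp -0.0057. The replicate block gave -0.0011 for Ifih1 and -0.0099 for Dtx3l (vehicle 8 h against 4 h).

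Leaving out each replicate gave -0.12 to 0.067 for Psmb8 at 2 h, -0.16 to 0.025, -0.099 to 0.083 and -0.047 to 0.13 for its vehicle 4 h against 2 h, vehicle 8 h against 2 h and effect at 8 h against 2 h, and -0.090 to 0.0093 for Psmb10 at 2 h. Psmb9 ran from -0.16 to 0.049 at 8 h and from -0.0069 to 0.14 in vehicle 8 h against 2 h, Dtx3l from -0.10 to 0.080 at 4 h and from -0.074 to 0.074 in vehicle 8 h against 4 h, and Ifih1 there from -0.035 to 0.11. Parp9 ran from -0.019 to 0.087 and from -0.15 to 0.013 in vehicle 4 h and 8 h against 2 h, Dhx58 from -0.087 to 0.0088 in vehicle 8 h against 2 h, and B2m from -0.012 to 0.25 for the effect at 8 h against 4 h. Only 3 IL-1b arrays at 8 h and the lack of any signal level over background limit what these arrays can show.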
